A study of Rattus norvegicus with 24 samples.

Results

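The cytoskeletal genes of the diabetic rat retina described here were a list of 55 genes, namely the actins and the proteins that bind actin, the tubulins and the proteins that bind microtubules, motor subunits and intermediate filament proteins. A probe was taken for a gene if its RefSeq accession in the array files matched that gene's symbol. By this rule 27 of the 55 genes had 31 probes, out of 4013 genes with 4675 probes that could be named in this way. The other 28 genes, among them Actb, Actg1, Acta2, Tubb3, Stmn1 and Map1b, were not analysed here. Of the 31 probes, 22 probes of 20 genes were bright enough to be tested, and 9 were below the detection limit, which was a median intensity over the 24 arrays of 0.554 times the array median.

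The study compared retinas of male Sprague Dawley rats made diabetic with a streptozotocin injection (STZ) with retinas of age-matched rats that received only the sodium citrate vehicle, at 1 month and at 3 months after the injection. Streptozotocin is a toxin of the insulin-producing beta cells, and the diabetic rats received no insulin. The labels give 6 biological replicates, each with its own array, for each of the 4 groups, whereas the study's list of animals gives fewer control rats at 1 month, so that n counts arrays. The model is one of untreated insulin deficiency in whole retina. In such bulk RNA, fewer cells of a type and less RNA per cell cannot be told apart.

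Actin filaments lie under the plasma membrane and in the fine processes of neurons and glia, where monomer-binding proteins, tropomyosins and myosins set how fast they turn over and how they pull. Microtubules built of alpha and beta tubulin form the tracks of axons and dendrites, along which dynein and kinesin motors carry cargo, and associated proteins such as MAP1A and the collapsin response mediator proteins bind to them. Intermediate filaments add mechanical strength and differ between cell types, with vimentin and GFAP in the Müller glia and neurofilament proteins in ganglion cell axons.

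Levels are given as log2 of the intensity of a probe divided by the median intensity of its array, so that 0 is the array median. A difference was called when its limma p-value, adjusted over all tested probes by the Benjamini-Hochberg method, was under 0.05 and the change was at least 1.2-fold. At 3 months this scale moved most probes, since the median difference of all 22025 tested probes was 0.44, with 50.5% of them called higher and 3.55% called lower in the STZ arrays. Quantile normalization, which keeps only the rank of a probe within its array, brought that median to 0.16 and the shares to 24.6% higher and 6.92% lower. The interquartile range of log2 values within an array had a median of 3.47 in both 1 month groups, 1.81 in the controls at 3 months and 2.50 in the STZ group at 3 months. Control 2 of the 3 month group stood apart with a median correlation to its group of 0.842. Rod markers, which define the retina, lay well above the array median in all groups, with group means from 3.57 to 7.38 for Rcvrn, Sag and Cnga1.

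Promoter sequences of the members were taken from RefSeq on the GRCr8 build, and 3 of them are printed because their genes are the skeletal muscle actin and the members that changed in the same direction on both scales. Each is taken from the 250 bases before the start in the promoter table, 5′ to 3′ on the strand of the gene, with capitals at the GC box (GGGCGG), the TATA box (TATAAA) and the CArG box on either strand, where neighbouring matches may overlap. The CArG box is the binding motif of serum response factor, known from actin genes. The Acta1 stretch lies on the minus strand at chr19:68784195-68784444, that of Crmp1 on the minus strand at chr14:77780917-77781166 and that of Add3 on the plus strand at chr1:262152518-262152721. The table's start for Add3 lies inside the annotated span of that gene, so its stretch is printed only up to the span, which leaves 204 bases.
Acta1: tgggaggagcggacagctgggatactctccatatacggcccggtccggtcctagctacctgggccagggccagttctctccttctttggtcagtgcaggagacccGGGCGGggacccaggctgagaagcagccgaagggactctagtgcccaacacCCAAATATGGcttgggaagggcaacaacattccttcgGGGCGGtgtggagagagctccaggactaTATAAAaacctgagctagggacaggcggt
Crmp1: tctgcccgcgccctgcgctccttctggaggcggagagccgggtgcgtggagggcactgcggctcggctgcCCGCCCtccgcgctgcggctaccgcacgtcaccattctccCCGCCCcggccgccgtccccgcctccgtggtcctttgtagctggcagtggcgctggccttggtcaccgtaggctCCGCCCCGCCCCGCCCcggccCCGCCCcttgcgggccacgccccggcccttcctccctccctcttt
Add3: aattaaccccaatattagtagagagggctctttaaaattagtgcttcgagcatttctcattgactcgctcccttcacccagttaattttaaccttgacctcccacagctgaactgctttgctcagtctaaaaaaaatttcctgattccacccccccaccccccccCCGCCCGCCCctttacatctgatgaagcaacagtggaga
Over the whole 250 bases, a CArG box stood in the stretches of 2 of the 49 members with a promoter in the table, Acta1 and Actg1, which is 4.08%, and in 1.5% of all 33469 promoters. The TATA box was found in 12.2% of the member stretches and in 12.9% of all promoters. The GC box was found in 77.6% of the member stretches and in 30.5% of all promoters, with 6 matches in Crmp1, 2 in Add3 and 2 in Acta1. A match is a description of letters and no evidence of binding.

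At 3 months the cytoskeletal probes moved with the array-wide shift. In the STZ arrays 14 of the 22 tested probes were called higher, which is 63.6% beside the 50.5% of all probes, and 1 was called lower, which was Add3. The called genes were 12 of 20 higher and 1 lower, and 7 were not called. The median difference of the member probes was 0.58, and that of the other 3120 tested probes with a RefSeq name was 0.48. After quantile normalization the median of the members was 0.05, 2 of the 22 probes were called higher and 3 lower. Only Crmp1 and Add3 were called in the same direction on both scales, 2 of 22 where 22.8% of all tested probes were. Dynll1 was called in opposite directions. When the limma model also held array spread as a covariate, 0 of the 22 and 0 of all probes were called. The members' median was 0.09, and 0 of the 22 had an unadjusted p under 0.05, beside 1934 of all 22025 probes. Array spread ran from 1.48 to 2.23 in the 3 month controls and from 2.07 to 2.70 in the STZ arrays. It thus differed with treatment, and this fit cannot separate them. No member other than Add3 among the 22 had STZ arrays that all lay beyond the control arrays, a separation seen in 10.2% of all tested probes.

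**Figure D1:**
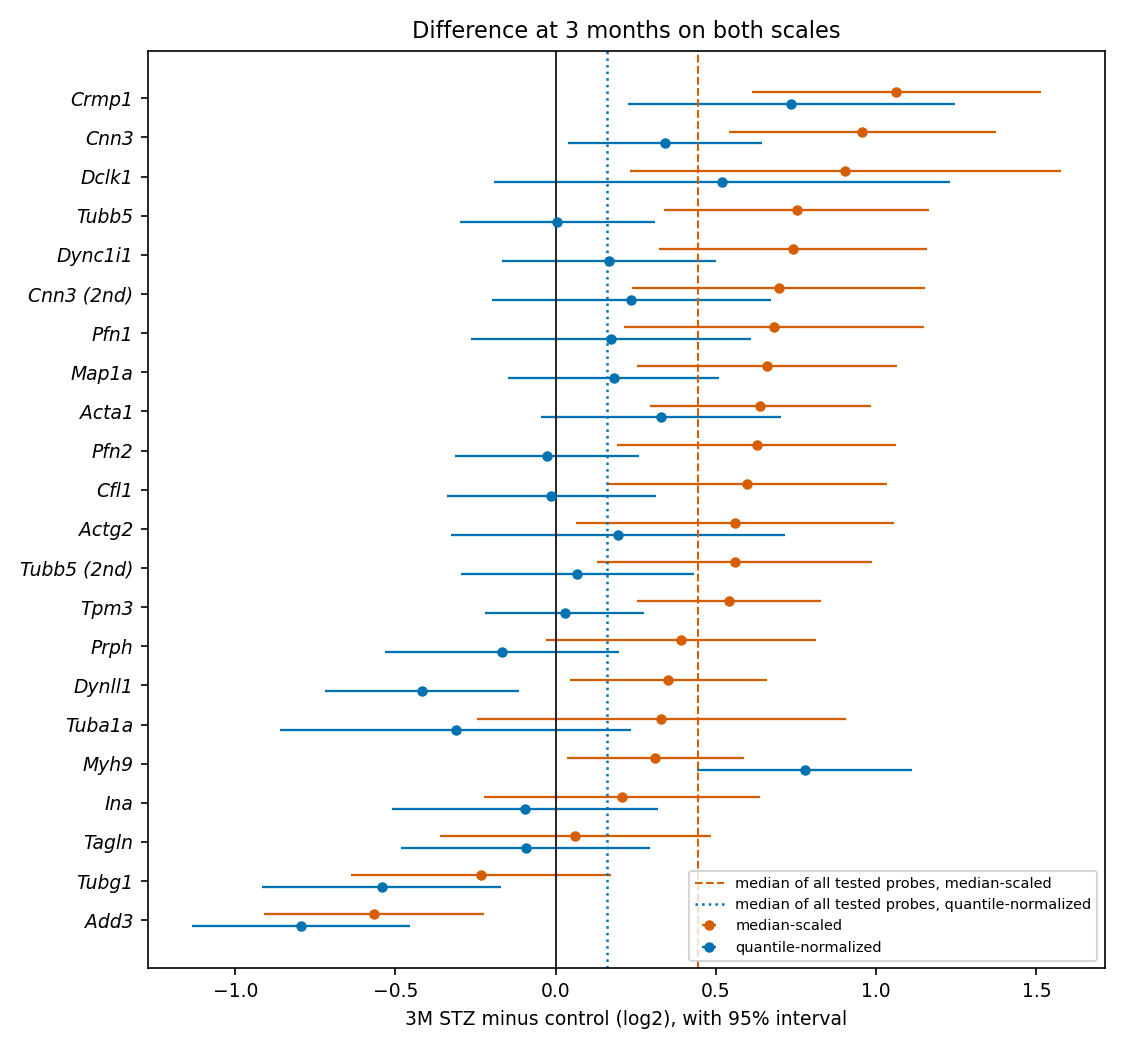
Difference between STZ and control arrays at 3 months (log2, horizontal axis) for the 22 tested probes of cytoskeletal genes (vertical axis), with 95% intervals, on the median-scaled values (orange) and after quantile normalization (blue); "2nd" marks the dimmer probe of a gene. The dashed and dotted lines are the medians of all 22025 tested probes on each scale, 0.44 and 0.16. Most orange points lie to the right of 0, most blue points lie near it, and Add3 lies to the left on both scales.

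The size of the difference followed the brightness of the probe, so the members were set beside RefSeq-named probes of like signal. With those probes cut into 4 sets of equal size by mean level, 8 of 10 member probes in the brightest set and 80.3% of the 776 others were called higher, with median differences of 0.61 and 0.65. In the next set 6 of 7 member probes and 62.6% of the 778 others were called higher, with medians of 0.66 and 0.53. The 5 member probes of the dimmer sets included no call upward, where 51.2% and 22.6% of the others were called higher. Within its set Crmp1 lay at percentile 92.7 of the differences, the brighter Cnn3 probe at 91.9 and Dclk1 at 86.6. The dimmer Cnn3 probe lay at percentile 68.6 of its set. At the other end lay Tubg1 at percentile 7.03, Add3 at 7.53, Tuba1a at 8.38, Dynll1 at 9.54 and Prph at 12.8.

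**Figure D2:**
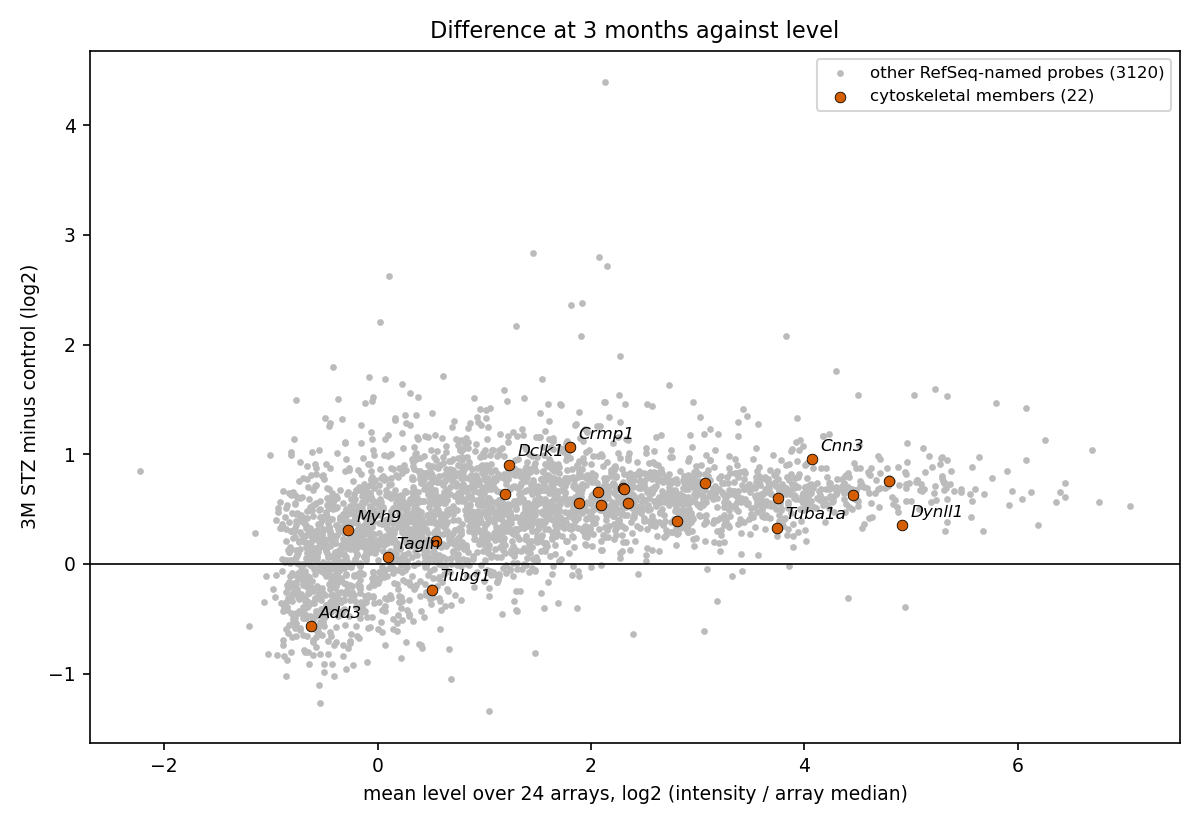
Difference between STZ and control arrays at 3 months (log2, vertical axis) against the mean level over the 24 arrays (log2 of intensity over array median, horizontal axis) for the 22 tested cytoskeletal probes (orange) and 3120 other RefSeq-named probes (grey). The grey cloud lies lower at the dim end, and Crmp1, Cnn3 and Dclk1 lie in its upper part while Add3, Tubg1, Tuba1a and Dynll1 lie in its lower part.

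Both actins that could be tested were muscle isoforms, and 1 of them, Acta1, rose. Acta1 encodes skeletal muscle alpha-actin. Its level at 3 months was 0.06 on the lowest, 0.80 on the median and 1.22 on the highest control array and 1.13, 1.41 and 1.68 on the STZ arrays. The groups overlapped by a small margin, and all 6 STZ arrays lay above the control median. The difference was 0.64 ± 0.17 (SE, n = 6 per group, limma adjusted p = 0.00387), and 0.33 with an adjusted p of 0.173 after quantile normalization. Actg2, the enteric smooth muscle gamma-actin, ranged from 0.37 over a median of 1.31 to 1.81 in the controls and from 1.18 over 1.53 to 2.72 in the STZ arrays, which overlapped widely. Its difference of 0.56 ± 0.24 did not pass (limma adjusted p = 0.0528) and was 0.19 after quantile normalization. The actins are near-identical in coding sequence, so each probe may read more than 1 isoform, and probe sequences were not used here. Among skeletal muscle markers Atp2a1, the calcium pump of fast fibres, was called higher on both scales, and Pvalb on the median scale only. For Ckm, Mb and Tnni2 the median intensity over all arrays was below the limit. The mean levels of these 3 in the 3 month control and STZ arrays were -1.63 and -1.50 for Ckm, -1.17 and -2.02 for Mb and 0.57 and -0.21 for Tnni2, so that the markers did not move one way. The summed intensity of the 5 skeletal muscle genes with a probe (of 12 listed) was 5.64 to 8.52 times the array median in the controls and 8.36 to 9.72 in the STZ arrays. Their part in the Acta1 difference was not tested.

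All 3 tested actin monomer and filament regulators were called higher on the median scale, and none was called after quantile normalization. They lay in the brightest set of like signal, where 80.3% of the other probes were called higher. Their percentiles within that set were 56.8 for Pfn1, 45.7 for Pfn2 and 39.8 for Cfl1. Profilin 1, encoded by Pfn1, loads actin monomers onto growing filaments. Its level ranged from 1.22 over a median of 1.99 to 2.72 in the 3 month controls and from 2.21 over 2.69 to 3.24 in the STZ arrays, an overlap of several arrays. The difference was 0.68 ± 0.23 (limma adjusted p = 0.0159), 0.17 after quantile normalization, and without 3 month control 2 the adjusted p rose to 0.0566. Pfn2, the neuronal profilin, was 0.63 ± 0.21 higher (limma adjusted p = 0.0164, 0.0512 without the same control array) but -0.03 after quantile normalization. Cfl1 encodes cofilin, which severs actin filaments. It ranged from 2.54 over 3.31 to 3.84 in the controls and from 3.28 over 3.83 to 4.29 in the STZ arrays. Its difference was 0.60 ± 0.21 (limma adjusted p = 0.022) and turned to -0.01 after quantile normalization, since its rank stood at percentile 96.3 in the controls and 96.2 in the STZ arrays. Leaving out any of 4 arrays, 3 month control 2 or 3 or 3 month STZ 2 or 5, ended the Cfl1 call, with adjusted p up to 0.0744.

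Of the tropomyosin, myosin and contractile group, Cnn3 and Tpm3 rose on the median scale, Myh9 and Tagln were not called. Calponin 3, encoded by Cnn3, is an actin-binding protein that is also made outside muscle. Its brighter probe ranged from 2.09 over a median of 3.38 to 3.79 in the 3 month controls and from 3.71 over 4.16 to 4.46 in the STZ arrays, so that 1 control array reached into the STZ range. The difference was 0.96 ± 0.20 (limma adjusted p = 0.000881), which is 0.31 above the median of other probes of like signal. After quantile normalization it was 0.34 with an adjusted p of 0.0782. The second Cnn3 probe gave 0.70 ± 0.22 (limma adjusted p = 0.0124). Tpm3, a tropomyosin found along actin filaments of many cell types, was 0.54 ± 0.14 higher (limma adjusted p = 0.00353) and 0.03 after quantile normalization.

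Tagln encodes transgelin, an abundant actin-binding protein of smooth muscle. Its level ranged from 0.07 over 0.36 to 0.46 in the 3 month controls and from 0.01 over 0.36 to 0.71 in the STZ arrays, and its difference of 0.06 ± 0.21 (limma adjusted p = 0.808) became -0.09 after quantile normalization. Among the other smooth muscle and pericyte markers, Cspg4, the NG2 proteoglycan of pericytes, was called higher on both scales, whereas Pdgfrb, Rgs5 and Mcam were not called and Cnn1 and Myocd were below the limit. Their summed intensity was 5.09 to 6.41 times the array median in the controls and 5.67 to 6.53 in the STZ arrays. Myh9, the heavy chain of nonmuscle myosin IIA, was singled out after its values were seen. Its difference of 0.31 ± 0.13 was not called on the median scale (limma adjusted p = 0.0519) and was 0.78 after quantile normalization (adjusted p = 0.000876), as its mean rank went from percentile 26.3 to 40.5. The other Myh9 probe, below the detection limit, went the opposite way by -0.95 in a fit without the limit, so the probes of this gene disagree.

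Add3 was the only tested member called lower on the median scale. It encodes gamma-adducin, which joins the spectrin network under the membrane to the ends of actin filaments. Its level at 3 months ranged from -0.02 over a median of 0.15 to 0.62 in the controls and from -0.56 over -0.28 to -0.20 in the STZ arrays. Every STZ array lay below every control array. The difference was -0.57 ± 0.17 (limma adjusted p = 0.00778) and -0.80 after quantile normalization (adjusted p = 0.000807), and the mean rank went from percentile 57.2 to 42.5. Without 3 month control 2 the call held on both scales, at -0.49 (limma adjusted p = 0.0212) and -0.69 (adjusted p = 0.00159). With the spread of the array as a covariate the call was lost, at -0.22 (limma adjusted p = 0.793). Spread differed with treatment, so that fit cannot separate them. At 1 month the probe was dim, above the limit on 1 of 6 arrays in each group, with a difference of -0.04. For the other adducins, Add1 and Add2, the median intensity over all arrays was below the limit, so they were not tested. At 3 months Add2 was above the limit on 6 of 6 arrays in each group. Add1 was above it on 6 of 6 control and 4 of 6 STZ arrays. The fit of all probes without that limit gave -0.67 for Add1 at 3 months (limma adjusted p = 0.0514). For Add2 it gave -0.66 (adjusted p = 0.0101).

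Of the tubulins, Tubb5 rose on the median scale and Tuba1a and Tubg1 were not called. Tubb5 is a beta-tubulin of most cell types and was among the brightest probes of the arrays. Its level ranged from 3.56 over a median of 4.42 to 5.06 in the 3 month controls and from 4.89 over 5.03 to 5.22 in the STZ arrays, where the highest control array lay inside the STZ range. The difference was 0.75 ± 0.20 (limma adjusted p = 0.00432) and its second probe gave 0.56 ± 0.21 (adjusted p = 0.0276). After quantile normalization the 2 probes gave 0.01 and 0.07. The mean rank of the brighter probe was percentile 99.2 in both groups.

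Tubg1 encodes gamma-tubulin, which nucleates microtubules at the centrosome. It ranged from 0.41 over 0.78 to 0.92 in the controls and from -0.05 over 0.62 to 0.67 in the STZ arrays, and no STZ array was above the control median. Its difference of -0.23 ± 0.20 did not pass on the median scale (limma adjusted p = 0.313) and was called lower after quantile normalization, at -0.54 (adjusted p = 0.0242). The mean rank went from percentile 68.4 to 59.3. Tuba1a, the main alpha-tubulin of neurons, differed by 0.33 ± 0.28 (limma adjusted p = 0.316) on the median scale and by -0.31 after quantile normalization. Other alpha-tubulin genes are nearly identical to it, so its probe may read more than this gene.

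All 3 tested microtubule regulators rose on the median scale, and Crmp1 had the largest difference of all 22 member probes. They lay in the set next to the brightest, where 62.6% of the other probes were called higher. Their percentiles within that set were 64.7 for Map1a, 86.6 for Dclk1 and 92.7 for Crmp1. Crmp1 encodes a collapsin response mediator protein, one of a family that binds tubulin in growing axons. Its level ranged from -0.20 over a median of 1.09 to 1.81 in the 3 month controls and from 1.68 over 2.01 to 2.37 in the STZ arrays. Only the highest control array lay inside the STZ range. The difference was 1.06 ± 0.22 (limma adjusted p = 0.000767), which is 0.53 above the median of other probes of like signal, and 0.74 after quantile normalization (adjusted p = 0.0255). The lowest value belonged to 3 month control 2, and without that array the differences were 0.83 (limma adjusted p = 0.00105) and 0.43 (adjusted p = 0.0407). At 1 month Crmp1 ranged from 1.85 over 2.06 to 2.68 in the controls and from 1.84 over 2.02 to 2.36 in the STZ arrays.

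Dclk1, a microtubule-binding kinase related to doublecortin, ranged from 0.37 over 0.58 to 1.45 in the 3 month controls and from 1.23 over 1.61 to 2.16 in the STZ arrays. Here 3 month control 2 was the highest control and not the lowest, in contrast to Crmp1. The difference was 0.90 ± 0.33 (limma adjusted p = 0.0237) and 0.52 after quantile normalization (adjusted p = 0.266). Without 3 month STZ 6 the call was lost at an adjusted p of 0.0588. The direction is opposite to that of the paper's quantitative PCR, in which this gene, there named DCAMKL1, was reproducibly lower at 3 months. The cause of this disagreement was not tested. Map1a, which binds along dendritic and axonal microtubules of mature neurons, ranged from 1.03 over 1.58 to 2.34 in the controls and from 1.89 over 2.27 to 2.56 in the STZ arrays. Its difference was 0.66 ± 0.20 (limma adjusted p = 0.00855) and 0.18 after quantile normalization.

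**Figure D3:**
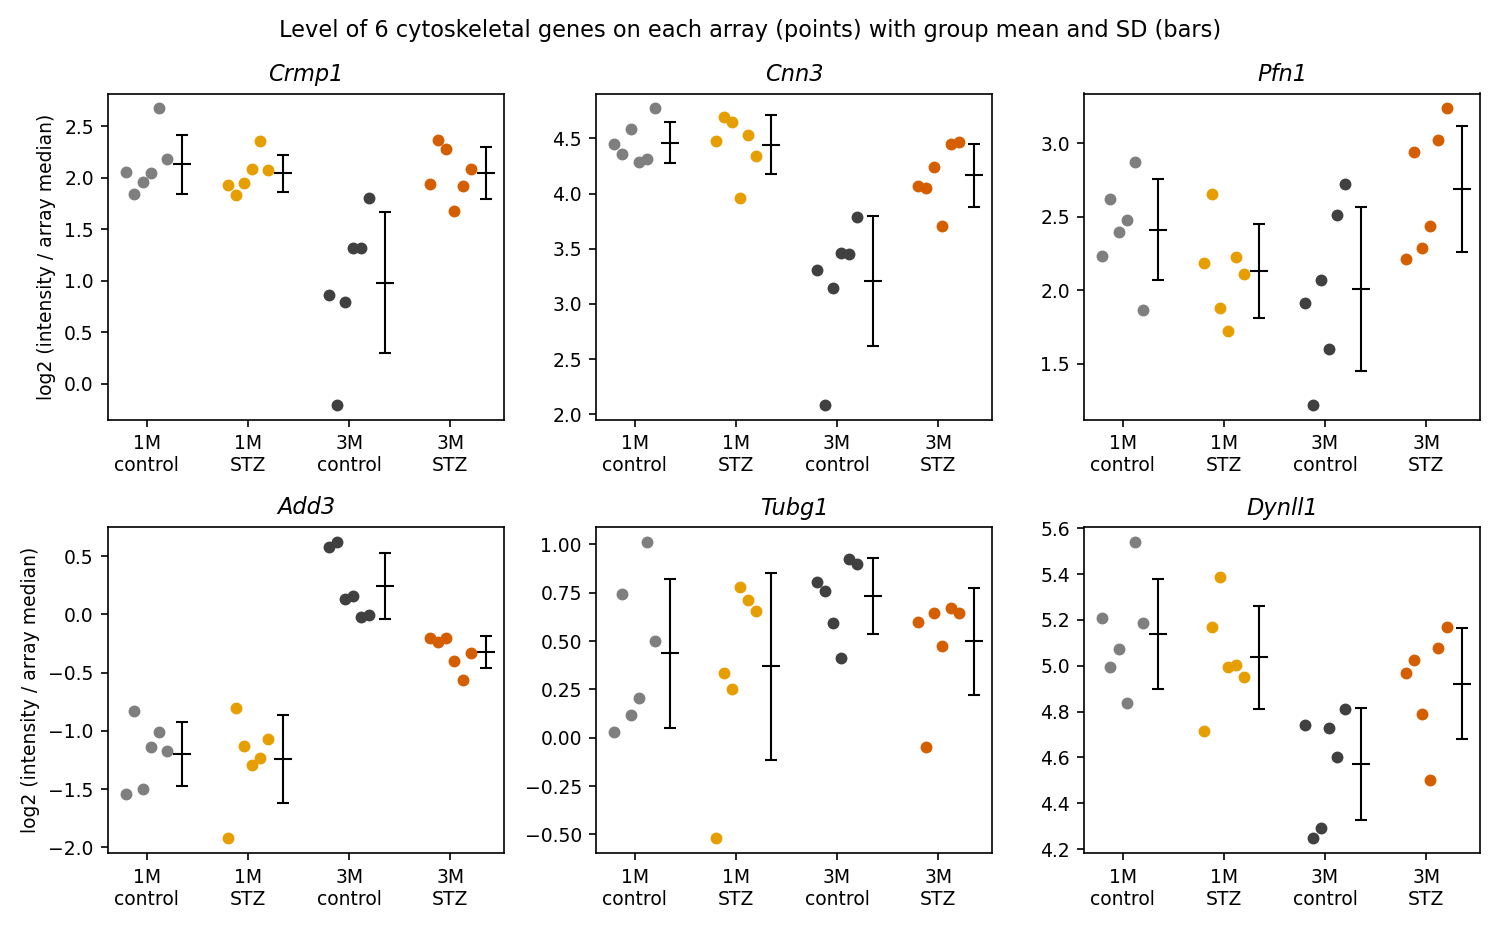
Level on each array (points, log2 of intensity over array median, vertical axis) of Crmp1, Cnn3, Pfn1, Add3, Tubg1 and Dynll1 in the 4 groups of 6 arrays (horizontal axis), with the group mean and SD beside them. In Add3 all 3 month STZ arrays lie below all 3 month controls, from -0.56 to -0.20 against -0.02 to 0.62, and in Crmp1 and Cnn3 the 3 month controls are the lowest group.

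Both tested dynein subunits among the members were called higher on the median scale. They lay in the brightest set of like signal, where 80.3% of the other probes were called higher. Their percentiles within that set were 69.7 for Dync1i1 and 9.54 for Dynll1. Dync1i1 encodes an intermediate chain of cytoplasmic dynein, the motor that moves cargo towards the cell body. Its level ranged from 1.94 over a median of 2.76 to 3.29 in the 3 month controls and from 2.92 over 3.45 to 3.75 in the STZ arrays, with overlap. The difference was 0.74 ± 0.20 (limma adjusted p = 0.00508) and 0.17 after quantile normalization. Dynll1, a dynein light chain that also joins many other protein complexes, ranged from 4.25 over 4.67 to 4.81 in the controls and from 4.50 over 5.00 to 5.17 in the STZ arrays. Its difference was 0.35 ± 0.15 (limma adjusted p = 0.0492) on the median scale and -0.42 after quantile normalization (adjusted p = 0.0325), where 776 other probes of its brightness had a median of 0.04. Leaving out any of 16 arrays ended the call on the median scale, with adjusted p up to 0.117, and without 3 month control 2 the value after quantile normalization was -0.31 (adjusted p = 0.0794). Both calls of Dynll1 were thus lost when 1 array was left out.

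The 2 intermediate filament members were not called at either time. Ina, the alpha-internexin of neurons, ranged from 0.13 over a median of 0.71 to 1.02 in the 3 month controls and from 0.18 over 0.88 to 1.51 in the STZ arrays, a difference of 0.21 ± 0.21 (limma adjusted p = 0.403) that was -0.10 after quantile normalization. Prph, the peripherin filament of ganglion cells and peripheral neurons, ranged from 1.95 over 2.67 to 2.97 and from 2.55 over 2.94 to 3.29, a difference of 0.39 ± 0.21 (limma adjusted p = 0.106) that was -0.17 after quantile normalization. The intermediate filaments of glia, which are not members, stood higher in the STZ arrays on both scales. Vim differed by 1.53 (limma adjusted p = 8.7e-05) and by 0.73 after quantile normalization, and Gfap by 1.29 (adjusted p = 0.000894) and by 0.90. All 5 listed markers of reactive glia were called higher on both scales, and their summed intensity was 15.7 to 40.3 times the array median in the 3 month controls and 62.7 to 369 in the STZ arrays. Of the tested markers of other cells, those called higher on the median scale and after quantile normalization were 2 and 2 of 3 for microglia and leukocytes, 3 and 2 of 4 for lens, 3 and 0 of 5 for ganglion cells, 2 and 0 of 4 for Müller glia, and 0 and 0 for the retinal pigment epithelium and erythrocytes. The part of these cells in the differences of the members was not tested.

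A wider list of 109 other cytoskeletal genes was set beside all RefSeq-named genes. Calls upward were made for 19 and a call downward for 1 of its 29 tested genes, whose differences had a median of 0.53, and for 56.0% and 3.45% of the 2812 tested RefSeq-named genes, with a median of 0.50. After quantile normalization 4 of the 29 passed upward and 1 downward, around a median of 0.01, beside 27.3% and 6.15% of all RefSeq-named genes. The 4 were Vim, Gfap, the filament-capping Tmod1 (0.69 after quantile normalization) and the dynein light intermediate chain Dync1li1 (1.53). The gene called lower on both scales was Myl12b, a regulatory light chain of nonmuscle myosin, at -1.26 (limma adjusted p = 0.00203) and -1.80.

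Of the 22 tested member probes 16, or 72.7%, moved in mean rank by under 5 percentiles between control and STZ arrays at 3 months, as did 52.4% of all tested probes. The mean rank of 6 of the 22 was over percentile 95 in the controls, where little room is left to move upward. The largest upward moves were 14.2 percentiles for Myh9 and 11.1 for Crmp1, and the largest downward moves were -14.7 for Add3 and -9.09 for Tubg1. On the median scale 20 of the 22 probes had a positive difference, and after quantile normalization 13 had.

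**Figure D4:**
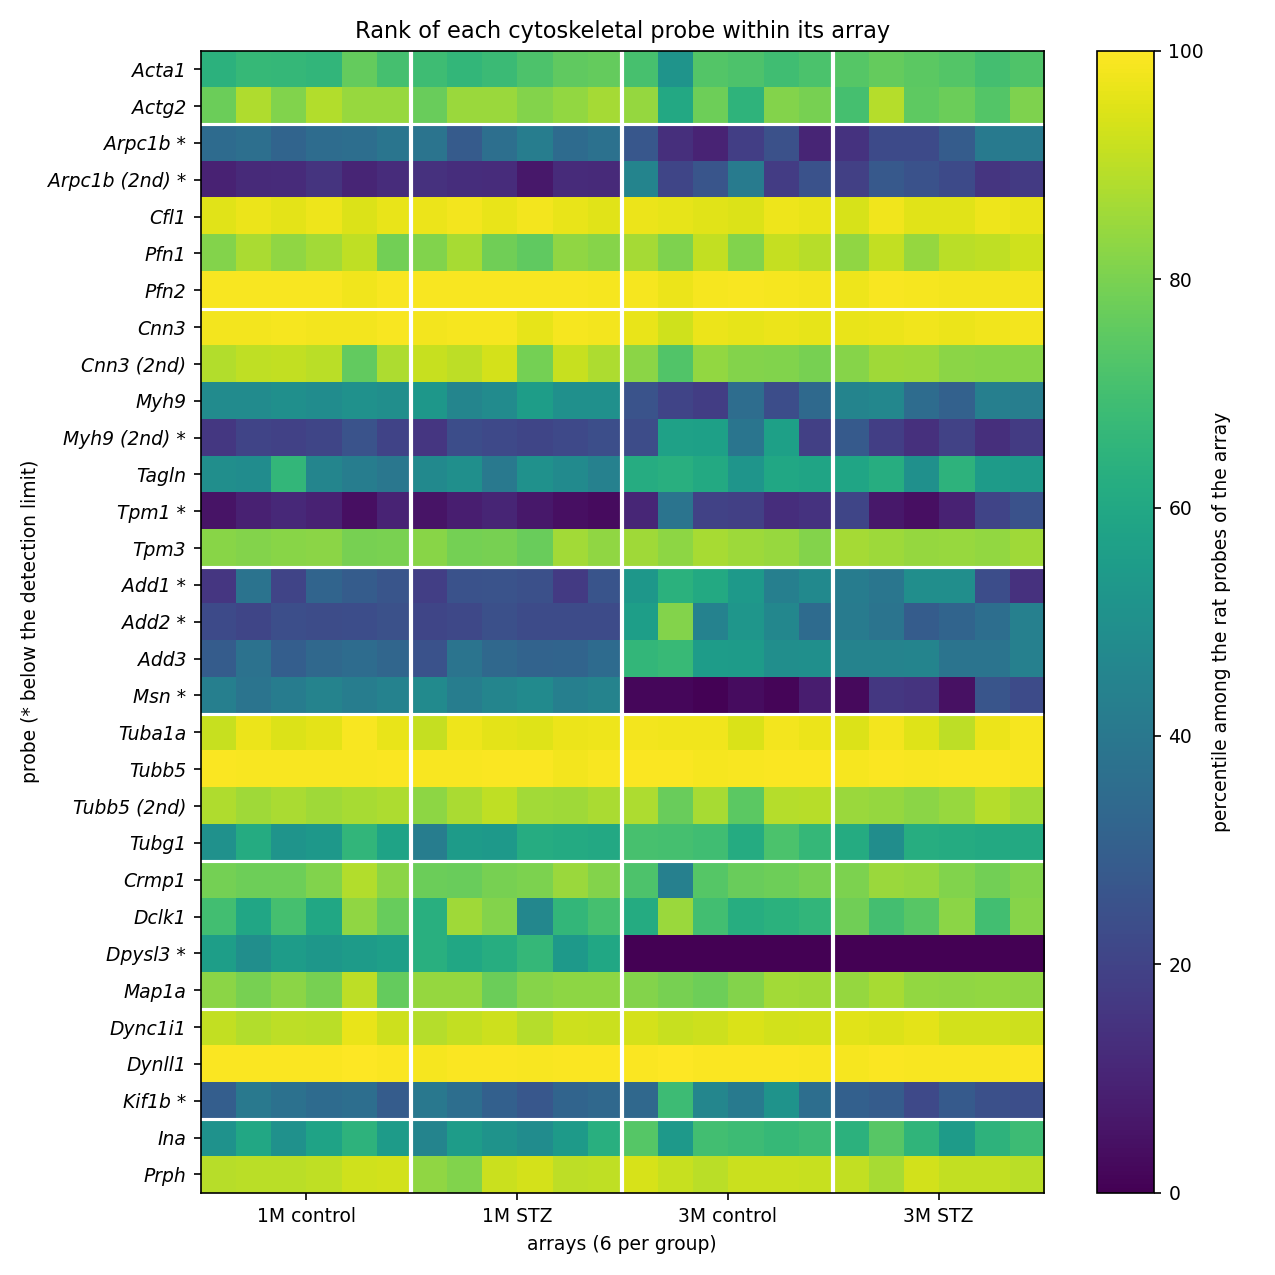
Percentile rank of each of the 31 cytoskeletal probes (rows, grouped by role) among the rat probes of its array, for the 24 arrays (columns, in their 4 groups); an asterisk marks the 9 probes below the detection limit and "2nd" the lesser probe of a gene. Bright members such as Tubb5 and Dynll1 stay near 100 on all arrays, while Dpysl3 falls to the bottom on all 12 arrays of 3 months.

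The 9 member probes below the detection limit moved as other dim probes did. In a fit of all rat probes without that limit, 7 of the 9 and 83.1% of the 11824 probes below the limit had a negative difference at 3 months. Of the 9, 3 were called lower and 1 higher, where 34.6% of all probes below the limit were called lower and 2.39% higher. Those lower were Add2, the kinesin Kif1b (-0.81, limma adjusted p = 0.00279) and the dimmer Myh9 probe (-0.95, adjusted p = 0.0022). That share was near that of other dim probes. For Kif1b every 3 month STZ array lay below every 3 month control array. The 1 higher was Msn, which encodes moesin, a linker of actin to the membrane, at 0.73 (limma adjusted p = 0.00449). Some of these probes differed strongly between the months. Dpysl3, a relative of Crmp1, had a median level of 0.35 in the 1 month controls and -4.81 in the 3 month controls, and its mean rank went from percentile 54.2 to 0.1. Such a fall of over 50 percentiles between the control groups was seen in 140 rat probes, 0.414% of all. Msn went from percentile 42.5 to 2.9, while Add1 rose from 27.0 to 53.7. Month of treatment, age and any batch of arrays cannot be told apart here.

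At 1 month no cytoskeletal probe was called on either scale, beside 0.00908% of all tested probes on the median scale. None of the 22 reached an unadjusted p under 0.05 in limma either, beside 927 of all 22025 tested probes. The median difference was -0.04, and single genes ranged from -0.28 for Pfn1 to 0.26 for Cfl1. For Crmp1 the 95% interval of the difference at 1 month was -0.54 to 0.36, and at 3 months it was 0.61 to 1.51. For Add3 the intervals were -0.39 to 0.30 and -0.91 to -0.22, which overlap. The Add3 interaction on the median scale was -0.52 and was not called (limma adjusted p = 0.101). As its probe was above the limit on 1 of 6 arrays in each group at 1 month, a fall there was hard to measure.

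The effect of STZ at 3 months was more positive than at 1 month in 4 of the 22 member probes, beside 14.8% of all tested probes. The interaction was 1.15 ± 0.31 for Crmp1 (limma adjusted p = 0.0268), 0.98 ± 0.29 for the brighter Cnn3 probe (adjusted p = 0.032), 0.96 ± 0.32 for Pfn1 (adjusted p = 0.0448) and 0.85 ± 0.29 for Dync1i1 (adjusted p = 0.0466). After quantile normalization none of these 4 passed, and the interactions that did were Myh9 at 0.71 (adjusted p = 0.0469) and Add3 at -0.77 (adjusted p = 0.035). Leaving out 1 array at a time gave 1 to 8 such probes on the median scale.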

How the data were processed

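Retinal RNA was hybridised to 24 CodeLink rat whole genome arrays, 6 per group by the labels, of 33911 probes, 62 of them bacterial. The authors scanned the arrays, excluded defective spots, subtracted the local background and deposited the spot intensity on a linear scale, and once more after dividing it by about the median of the array. Here the background-subtracted intensity was divided by the median of the 33849 rat probes of its array, floored at 0.01 and taken to log2. Rat probes whose median scaled intensity exceeded the 35th percentile over all arrays were tested. One linear model of the 4 groups was fitted with limma 3.58.1 in R 4.3.3, replacing the unequal-variance test of the methods, which was an alternative. The number of arrays limits the precision. The fit was tested on simulated data.

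Names came from RefSeq accessions, of which 4675 of 5469 matched a symbol, and the brightest tested probe stood for a gene. Array values are given for Dclk1, for called members whose groups were separated at 3 months, and for the tested members with the largest and smallest difference in each of 8 role groups; Actb was not analysed here. Myh9 and probes below the limit were named after their values were seen. Members and lists were chosen with earlier results of these data known. Lists covered rods (1 marker is not reported here), Müller and reactive glia, microglia and leukocytes, ganglion cells, smooth muscle and pericytes, skeletal muscle, lens, erythrocytes, pigment epithelium and other cytoskeletal genes. Alternatives were quantile normalization, the deposited normalized values, subtraction of the 5th percentile, the array spread as a covariate, other filters and floors, separate models, a replicate block, a variance trend, array weights and leaving out each array.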

Additional observations from a re-analysis of the deposited data

Results flagged for a closer look

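By a test of the interaction, the effect of STZ was more positive at 3 months than at 1 month for 4 member probes. The interaction was 1.15 for Crmp1 (limma adjusted p = 0.0268) and 0.98 for the brighter Cnn3 probe (adjusted p = 0.032). For Pfn1 it was 0.96 (adjusted p = 0.0448) and for Dync1i1 0.85 (adjusted p = 0.0466). None of these 4 interactions passed after quantile normalization, at which the adjusted p of Crmp1 was 0.124. On the median scale the dimmer Cnn3 probe gave 0.52 and was not called (limma adjusted p = 0.201).

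In 3 of 80 sets of 6 arrays, 1 array lay far from the others, where chance gives about 1 in 20. The highest 1 month control of Dync1i1, replicate 5, stood at 3.89 beside a group median of 3.11. The highest 1 month control of Tagln, replicate 3, stood at 1.11 beside a median of -0.18, and without it the difference at 1 month changed sign. The lowest 3 month STZ array of Tubg1, replicate 2, stood at -0.046 beside a median of 0.62.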

How the results depend on the processing

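Of the 14 member probes called higher and 1 called lower at 3 months, quantile normalization left 2 and 3, with a median difference of 0.048, and quantile normalization without 3 month control 2, an alternative chosen after seeing the data, left 2 and 2, with a median of 0.0063. The array spread as a covariate left 0 and 0, with a median of 0.090 and 0 differing between the months. Spread differed between the groups, so that fit cannot separate it from treatment. The methods' test called 5 higher, and 3 after adjustment. Without a filter 4 were called lower, and with probes detected on all 24 arrays 0 were, since Add3 was then not tested. The count of 4 members whose effect differed between the months became 2 after quantile normalization, 1 without 3 month control 2 on that scale, 1 after subtracting the 5th percentile and 9 with array weights. Leaving out 1 array gave 9 to 17 called higher, with 9 only without 3 month control 2, and 1 to 8 differing between the months, a count that moved by over 1.5 times for 14 of 24 arrays. It was lower without 1 month control 1, 3, 5 or 6, 1 month STZ 3, 4 or 6, 3 month control 1, 2 or 3, or 3 month STZ 2, 5 or 6, and higher without 3 month control 6. At 1 month 0 members were called under every alternative. The cause of these shifts was not tested. The replicate numbers did not pair the arrays, as the correlations of same-numbered deviations ran from -0.24 to 0.25, and a replicate block gave 13 higher, 1 lower and 3 differing between the months.

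At 3 months the signs that turned after quantile normalization, and then without 3 month control 2 on that scale, were Cfl1 (-0.013 and -0.016), Dynll1 (-0.42 and -0.31), Ina (-0.10 and -0.25), Pfn2 (-0.028 and -0.13), Prph (-0.17 and -0.18), Tagln (-0.094 and -0.052) and Tuba1a (-0.31 and -0.30). With the spread as a covariate they were Cfl1 -0.23, Ina -0.066, Map1a -0.10, Tagln -0.16 and Tuba1a -0.40, and at 1 month Tubb5 0.0019. Array weights turned 1 month values near 0, namely Cnn3 0.034, Crmp1 0.033, Dclk1 0.42, Dync1i1 0.12, Dynll1 0.066, Tpm3 -0.056, Tuba1a 0.099, Tubb5 0.090 and Tubg1 0.037. Leaving out 1 array turned Tagln at 3 months (-0.0034 to 0.14) and these at 1 month: Add3 -0.13 to 0.092, Cnn3 -0.070 to 0.077, Crmp1 -0.15 to 0.022, Dclk1 -0.30 to 0.25, Dync1i1 -0.18 to 0.044, Map1a -0.070 to 0.15, Tagln -0.26 to 0.10, Tpm3 -0.067 to 0.066, Tuba1a -0.16 to 0.13, Tubb5 -0.077 to 0.094 and Tubg1 -0.15 to 0.11.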
